A study of Arabidopsis thaliana with 8 samples.

Results

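Phloem and differentiating xylem, as 1 vascular side of the Arabidopsis thaliana root, were compared with cortex. Phloem moves sugars and signals through living sieve elements that their companion cells keep supplied. Xylem conducts water through cells that build a thick secondary wall and then die. Both files of cells arise from the procambium inside the ring of endodermis, and cortex is the ground tissue outside that ring. Cortex cells are large, elongate strongly, store and conjugate small molecules and lie on the path by which soil solutes reach the stele. Genes that shifted the same way in both vascular populations are described here, the higher set first and then the lower set.

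The series holds 8 Affymetrix ATH1 arrays of wild-type Columbia roots: 2 of phloem sieve cells with companion cells, 3 of differentiating xylem and 3 of cortex. All groups came from seedlings grown to 6 days at 22 °C. Root tips of about 1 cm were turned into protoplasts, GFP-positive protoplasts were sorted, and their RNA was amplified in 2 cycles. No untransformed or unsorted sample enters the comparison, so every group carries a GFP marker and has passed through protoplasting and sorting. The labels used here do not name the marker lines, and a marker line defines which cells a group holds. Arrays of a population are called biological replicates by the labels, which do not say whether these came from separate plants, so p-values measure the spread between these arrays.

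A probe set was a member when the phloem mean and the xylem mean both lay at least 1 log2 unit (a fold of 2) above the cortex mean, or both at least 1 below it. Values were log2(intensity + 16) of the deposited intensities. Of 22746 probe sets tested, 2245 met this rule: 681 (2.99%) were higher in both vascular populations and 1564 (6.88%) were lower in both. A shift was called when both comparisons with cortex also passed an adjusted p of 0.05 in limma. That held for 629 of the higher members, 2.77% of all probe sets tested, and for 1435 of the lower members, 6.31%. The other 52 higher and 129 lower members met the rule on means alone. Taken singly, phloem was called higher than cortex by at least 1 in 9.16% of probe sets and lower in 9.41%, and xylem in 8.62% and 20.6%. Because the shifts chose the members and both comparisons share the 3 cortex arrays, the shifts and counts are descriptions. The xylem minus phloem difference uses no cortex mean and was tested separately. Only 369 called higher and 672 called lower probe sets were listed with 1 gene, and 43 and 112 of these carried a symbol. Genes with a symbol numbered 1536, of which 2.80% were called higher and 7.29% lower, and the counts given for gene families and lists stand beside these shares. Families were picked for description with their values known.

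**Figure D1:**
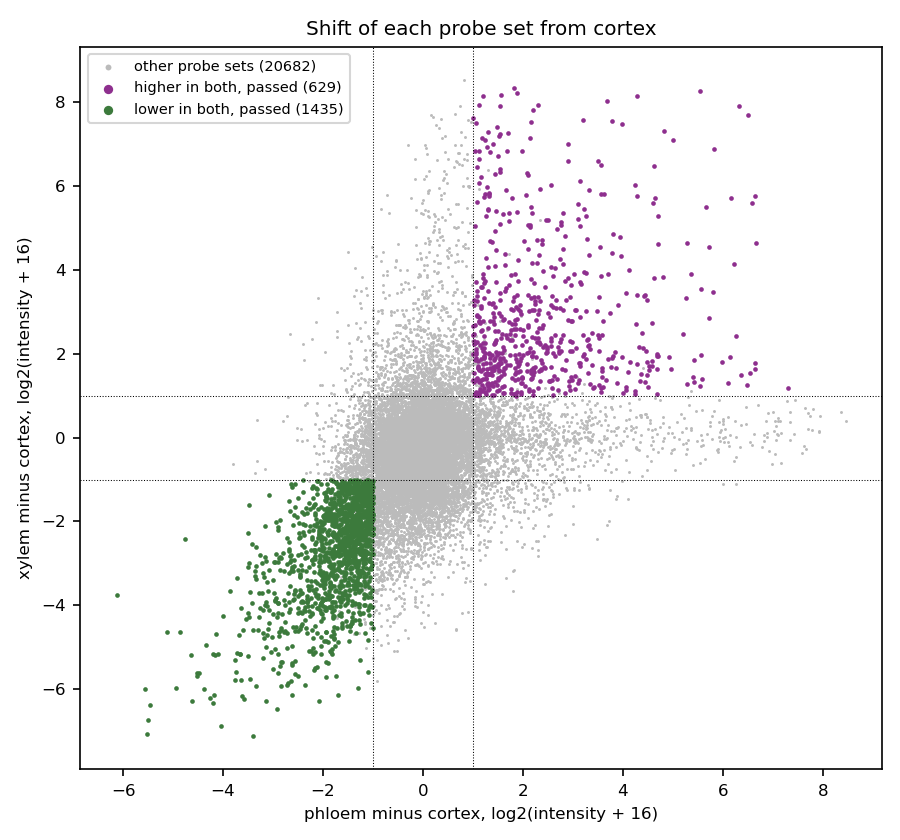
Each point is 1 probe set, with the phloem minus cortex shift on the horizontal axis and the xylem minus cortex shift on the vertical axis, both in log2(intensity + 16). The 629 called higher members fill the upper right corner and the 1435 called lower members the lower left corner, where the xylem shift often exceeds the phloem shift.

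The higher members were dim in cortex and the lower members bright there. Over the called higher members, median intensity was 324 in phloem and 454 in xylem, against 36.9 in cortex. Over the called lower members it was 527 in cortex, 54.7 in xylem and 138 in phloem. The dim side averaged under 16 intensity units in 148 of the higher and 308 of the lower called members, so the log2 shift of those understates the ratio. Opposite shifts were rarer. In all, 78 probe sets (0.343%) rose by at least 1 in xylem and fell by at least 1 in phloem with both comparisons passing, and 221 (0.972%) did the reverse. All 5 vascular arrays lay above all 3 cortex arrays in 628 of the 629 called higher members, and below them in 1433 of the 1435 called lower members. It holds for each called gene whose array values follow. Such full separation was found in 7.69% of all probe sets upward and in 17.5% downward.

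The arrays of a population correlated at 0.95 to 0.98 and arrays of different populations at 0.72 to 0.86 (Pearson, across probe sets). Median intensity was 70.3 to 73.6 in phloem, 61.4 to 62.4 in cortex and 41.2 to 42.7 in xylem. The 3'/5' ratio of the GAPDH control probe sets, a sign of RNA integrity and labelling, ranged from 1.98 to 2.60 on cortex arrays, from 5.91 to 8.79 on phloem arrays and from 4.89 to 9.74 on xylem arrays. The ubiquitin ratio ran the other way, at 4.57 to 4.92 on cortex, 3.41 to 4.19 on phloem and 3.19 to 3.71 on xylem arrays. The actin ratio overlapped, at 18.2 to 24.6, 21.3 to 23.1 and 12.5 to 32.9 in that order. The part of these ratios in the shifts was not tested. Across all probe sets the median shift was -0.03 in phloem and -0.14 in xylem. The balance of the calls depends on the scale: 30.5% of called members were higher on the values as deposited and 7.94% after scaling to the hybridisation spike-ins, which moved the median shift of the vascular average to -0.58.

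Markers were checked in every population. The 5 measured cortex and ground tissue markers summed to 3848 to 4852 in cortex, 143 to 154 in phloem and 39.4 to 70.8 in xylem. One of them, AT1G62500, was near background everywhere, at 34.8 and 16.6 in phloem, 12.5, 19.3 and 4.55 in xylem and 8.72, 15.8 and 24.2 in cortex. The 5 of 27 phloem markers that were measured summed to 3718 to 4298 in phloem, 130 to 175 in xylem and 280 to 339 in cortex. Among them OPS was near background everywhere, at 4.92 and 14.6 in phloem, 7.15, 10.7 and 14.1 in xylem and 2.49, 15.7 and 4.32 in cortex. PEAR2 (AT5G02460) was dim even in phloem, at 30.9 and 54.4. For xylem, 5 of 26 were measured, at 18773 to 23329 in xylem, 1399 to 1988 in phloem and 979 to 1402 in cortex. None of these phloem and xylem markers was a called member. Markers of other cells were sparse. The 2 of 11 endodermis genes summed to 465 to 735 in cortex, 268 to 302 in phloem and 90.0 to 97.1 in xylem. For root hairs 2 of 9 were measured, at 270 to 400 in phloem, 94.2 to 133 in cortex and 18.1 to 53.0 in xylem. No root cap or pericycle marker was measured on a probe set with 1 gene. The higher endodermis sum in cortex came from GSO1, itself a called lower member, while AT1G61590 was higher in phloem than in cortex, and the part of endodermis signal in the shifts was not tested. In sorted pools, fewer cells of a type and less RNA per cell cannot be told apart.

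Genes with known microtubule or signalling relatives headed the higher members with a symbol. IQD33 belongs to the IQ-domain proteins, plant proteins that bind calmodulin and in many cases microtubules. It measured 1059.7 and 799 in phloem, 1116, 482 and 1002 in xylem and 2.97, 0.719 and 3.66 in cortex. It was near zero in cortex and of like intensity in both vascular populations. Its shift was 5.67 ± 0.34 log2 units (SE) in phloem and 5.50 ± 0.30 in xylem. TRM15, of a family whose founding members recruit the TON1 protein to cortical microtubules, measured 1487 and 966 in phloem, 1452, 775 and 1318 in xylem and 20.4, 37.6 and 36.5 in cortex. Its shifts were 4.70 ± 0.32 and 4.63 ± 0.28. For both genes the xylem minus phloem difference did not pass, at -0.17 for IQD33 (95% interval -0.94 to 0.59, adjusted p = 0.734) and -0.07 for TRM15 (-0.79 to 0.65, adjusted p = 0.89). Neither interval shows that the levels are equal. Other IQD genes did not follow. Of 15 measured genes 1 was called higher and 2, IQD19 and IQD22, were called lower, beside 2.80% and 7.29% of genes with a symbol. IQD19 measured 74.1 and 87.3 in phloem, 7.63, 17.3 and 33.4 in xylem and 431, 357 and 336 in cortex. The call of IQD22 was lost when any of 6 arrays was left out: both phloem arrays, cortex replicates 2 and 3, or xylem replicates 1 and 3. Among 15 measured TRM genes TRM15 alone was called. On the vascular average 4 TRM genes were higher and 4 lower, and the family's median vascular shift was 0.01.

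PLIM2b and NET2D, relatives of actin-binding proteins, were in the higher set. PLIM2b, a LIM-domain protein of the group that bundles actin filaments, measured 244 and 252 in phloem, 1089, 442 and 1061 in xylem and 63.98, 34.7 and 34.2 in cortex. It was 1.63 log2 units higher in xylem than in phloem (95% interval 0.74 to 2.51, adjusted p = 0.00869). NET2D, of the NETWORKED proteins that link actin to membranes, measured 310.1 and 196 in phloem, 784, 906 and 884 in xylem and 107, 50.1 and 74.1 in cortex. Its xylem minus phloem difference was 1.73 (1.09 to 2.38, adjusted p = 0.00119). Both genes were thus shared by the vascular populations but stronger in xylem. Of the 10 measured NET genes 2 were called higher and none lower, beside 2.80% and 7.29% of genes with a symbol, and the family's median vascular shift was 0.10.

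ATG8 proteins are small ubiquitin-like proteins that are coupled to the autophagosome membrane and recruit cargo. All 9 Arabidopsis ATG8 genes were measured, a list drawn up after their values were seen. ATG8D measured 1078 and 982 in phloem, 1185, 1090.4 and 827 in xylem and 119.6, 94.2 and 115 in cortex. Its shifts were 3.06 ± 0.20 and 3.05 ± 0.18, and xylem minus phloem was -0.01 (-0.46 to 0.44, adjusted p = 0.977). ATG8A, listed as APG8A, measured 2327 and 2149 in phloem, 1827, 1259 and 1133 in xylem and 345, 337 and 267 in cortex. It passed higher in phloem than in xylem, at -0.69 (-1.21 to -0.18, adjusted p = 0.0356). ATG8C was closer to the threshold at 617 and 607 in phloem, 709, 453 and 530.1 in xylem and 242, 249 and 262 in cortex, and its call was lost without xylem replicate 1.

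The other 6 ATG8 genes were not members. ATG8B came nearest, with 625 and 494 in phloem, 91.4, 105 and 68.0 in xylem and 36.8, 36.5 and 56.3 in cortex, a shift of 3.29 ± 0.25 in phloem and only 0.81 ± 0.22 in xylem. ATG8E, ATG8F and ATG8G were above cortex in phloem (0.92, 0.49 and 1.22) and below it in xylem (-0.59, -0.38 and -0.42). Over the list, 3 of 9 genes were called higher and none lower, and the median vascular shift was 0.54, beside 2.80% called higher and a median of -0.08 among the 1536 genes with a symbol. Under the other scalings tried 2 to 4 of the 9 were called higher and none lower, and the median was between 0.67 and 0.71 except under spike-in scaling, where it turned to -0.21. ATG3, the enzyme that couples ATG8 to lipid, shifted by 0.05 in phloem and 0.55 in xylem.

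**Figure D2:**
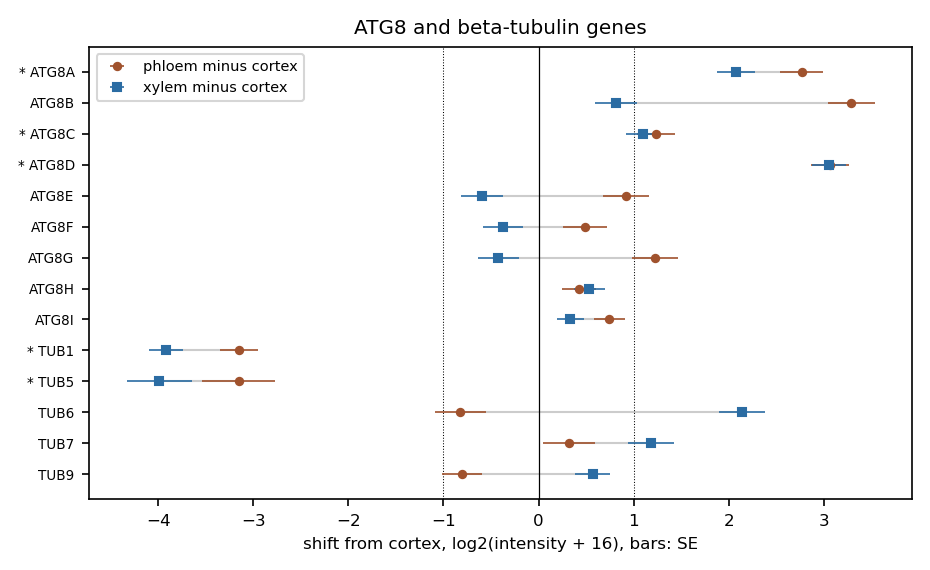
Points are the phloem minus cortex and xylem minus cortex shifts in log2(intensity + 16) with their SE as bars, for the 9 ATG8 genes and the 5 measured beta-tubulin genes. Dotted lines mark a shift of 1 in either direction and an asterisk a called member: ATG8A, ATG8C and ATG8D lie right of the line in both populations, and TUB1 and TUB5 left of it in both.

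UBC29, a ubiquitin-conjugating enzyme, measured 2486 and 2315 in phloem, 779, 1149 and 712 in xylem and 37.1, 44.0 and 47.8 in cortex. Its shifts were 5.36 ± 0.22 and 3.90 ± 0.20, with phloem the higher of the vascular populations (xylem minus phloem -1.46, 95% interval -1.96 to -0.96, adjusted p = 7.40e-04). UBC27 was called as well, at 1576 and 1352 in phloem, 1401, 1399 and 1629 in xylem and 474, 440.3 and 461 in cortex, although the call was lost under spike-in scaling. CYS1, a phytocystatin that inhibits papain-type cysteine proteases, was bright in all 3 populations and brighter in both vascular ones, with 4482 and 4090.1 in phloem, 3687, 2897 and 3324 in xylem and 823, 677 and 645 in cortex. Its shifts of 2.56 ± 0.18 and 2.18 ± 0.16 left a difference of -0.38 between xylem and phloem that did not pass (-0.80 to 0.04, adjusted p = 0.132).

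Serine carboxypeptidase-like genes divided. Among 29 measured, SCPL48, SCPL45 and SCPL35 were called higher and 4 others lower, beside 2.80% and 7.29% of genes with a symbol. The family's median vascular shift was 0.22. The calls of SCPL45 and SCPL35 were lost without phloem replicate 2, and that of SCPL45 also without phloem replicate 1. SCPL48 measured 837 and 839.9 in phloem, 12228, 14387 and 12843 in xylem and 238, 369 and 293 in cortex, so that its xylem level exceeded its phloem level by 3.94 log2 units (3.49 to 4.40, adjusted p = 1.55e-06). The subtilase SBTI1.1 showed the widest such gap among the higher members that were chosen for description after their values were seen. It measured 37.8 and 11.9 in phloem, 3803, 6461 and 3356 in xylem and 1.31, 2.56 and 1.87 in cortex. Its phloem shift of 1.11 ± 0.34 was lost as a call when phloem replicate 1, any cortex array or xylem replicate 1 was left out, and under the other normalizations tried. CML30, a calmodulin-like protein, lay the other way round, with 3906 and 3106 in phloem, 113, 90.4 and 75.9 in xylem and 21.3, 26.2 and 17.0 in cortex.

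Transport and metabolism added single genes to the higher set. PM-ANT, an adenine nucleotide transporter of the plasma membrane, measured 2014 and 1189 in phloem, 934, 835 and 1019 in xylem and 85.5, 92.3 and 87.4 in cortex. UGT74F1, a glucosyltransferase that conjugates salicylic acid, was close to zero in cortex, at 4.84, 3.74 and 3.15, and measured 107 and 141 in phloem and 651, 1006 and 799 in xylem. BGLU41, a family 1 beta-glucosidase, followed the same order with 204 and 154 in phloem, 941, 1318 and 821 in xylem and 7.81, 10.7 and 21.1 in cortex. Xylem exceeded phloem by 2.56 for UGT74F1 (2.04 to 3.09, adjusted p = 3.84e-05) and by 2.40 for BGLU41 (1.78 to 3.03, adjusted p = 1.53e-04). NOL, a chlorophyll b reductase, was of low intensity at 136 and 75.1 in phloem and 82.7, 100.3 and 68.3 in xylem, and was near background in cortex at 1.95, 6.19 and 8.97. MEF8S, a pentatricopeptide repeat protein of mitochondrial RNA editing, measured 372 and 297 in phloem, 618, 648 and 504 in xylem and 39.2, 43.7 and 44.3 in cortex.

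Several locus tags without a symbol in the annotation table were as bright. AT1G75280, with the synonym P3, was the brightest of the higher genes named by rule, at 6659 and 5553 in phloem, 11449.6, 10954 and 10286 in xylem and 334, 463 and 350.4 in cortex. AT5G66390, peroxidase PRX72, of a class of wall peroxidases that oxidise phenolics, measured 701 and 903 in phloem, 561.8, 605 and 639 in xylem and 59.7, 149.6 and 123 in cortex. No difference between xylem and phloem passed for PRX72 (-0.40, 95% interval -1.10 to 0.31, adjusted p = 0.35). TBL40 (AT2G31110), of a family in which several members acetylate wall polysaccharides, measured 378 and 331 in phloem against 134, 131 and 128 in cortex and 3778, 4641 and 3113 in xylem. A second probe set of the same gene fell just short of the rule, with a phloem shift of 0.99 and a xylem shift of 3.84. LEA27 (AT2G46140), a late embryogenesis abundant protein, had one of the smaller shifts, 1.45 ± 0.31 in phloem and 1.33 ± 0.27 in xylem, and its call was lost without phloem replicate 1.

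Ranked by the smaller of their shifts, the first 2 locus tags were AT5G14510 and AT1G55760, which the annotation table does not describe. AT5G14510 measured 1570.3 and 1155 in phloem, 2891, 2458 and 3109 in xylem and 4.40, 13.3 and 7.17 in cortex. AT1G55760 measured 2632 and 1537 in phloem, 1369, 1040.4 and 926 in xylem and 2.35, 2.16 and 9.39 in cortex. Both were near background in cortex and bright on every vascular array. AT1G63530 was named for its small xylem minus phloem difference, so that its like levels are a description. It measured 502 and 465 in phloem and 626, 465 and 392 in xylem, against 45.3, 33.6 and 56.9 in cortex, and xylem minus phloem was 0.01. AT5G11070 was named in the same way, but its arrays scattered, and the call was lost without either phloem array or without cortex replicate 2.

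Aux/IAA proteins repress auxin response genes until auxin triggers their degradation. IAA29 measured 49.8 and 96.5 in phloem, 1491, 1764 and 1362 in xylem and 3.60, 3.73 and 4.90 in cortex, so that xylem exceeded phloem by 4.17 (3.60 to 4.73, adjusted p = 3.89e-06). With a pseudocount of 64 the phloem shift no longer met the rule. IAA18 measured 415 and 412 in phloem, 402, 142 and 366 in xylem and 89.8, 71.2 and 66.9 in cortex, and its call was lost under spike-in scaling. The other 5 measured Aux/IAA genes were not called. BAT1, an acyltransferase linked to brassinosteroid inactivation, measured 255 and 382 in phloem, 90.1, 189 and 103 in xylem and 8.62, 17.8 and 39.3 in cortex. BRH1, a RING-H2 protein whose transcript responds to brassinosteroid, measured 401 and 416 in phloem, 790.4, 629 and 495 in xylem and 144, 115 and 63.0 in cortex. RALFL32, a secreted peptide of the RALF family, was strongest in phloem, with 1428 and 2182 there, 95.6, 159 and 151 in xylem and 12.4, 24.0 and 30.8 in cortex.

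PHV, a class III homeodomain-leucine zipper factor of vascular patterning, was the only one of 4 measured genes on the list of procambium and patterning genes to be called. It measured 68.5 and 55.0 in phloem, 232, 210.5 and 244 in xylem and 23.6, 8.61 and 30.5 in cortex, and its xylem level exceeded its phloem level by 1.66 (1.01 to 2.31, adjusted p = 0.00155). The phloem shift of PHV, 1.12 ± 0.28, lay near the threshold, and the call was lost without either phloem array, without cortex replicate 2 and under 4 other settings. The remaining 3 genes of that list were LHW with shifts of 0.11 and -1.12, MOL1 with 0.43 and -0.89, and AT2G28510 with 1.72 and 0.26. bHLH34 measured 427 and 393 in phloem, 398, 658 and 454 in xylem and 151, 167 and 167 in cortex. It was the only factor that the rule for transcription factors named in this direction. Spike-in scaling moved the median vascular shift of all probe sets from -0.08 to -0.58, and under it the calls of NET2D, SCPL48, SCPL45, SCPL35, CML30, ATG8C, TBL23, TBL40, LEA27, PHV and bHLH34 were lost as well.

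**Figure D3:**
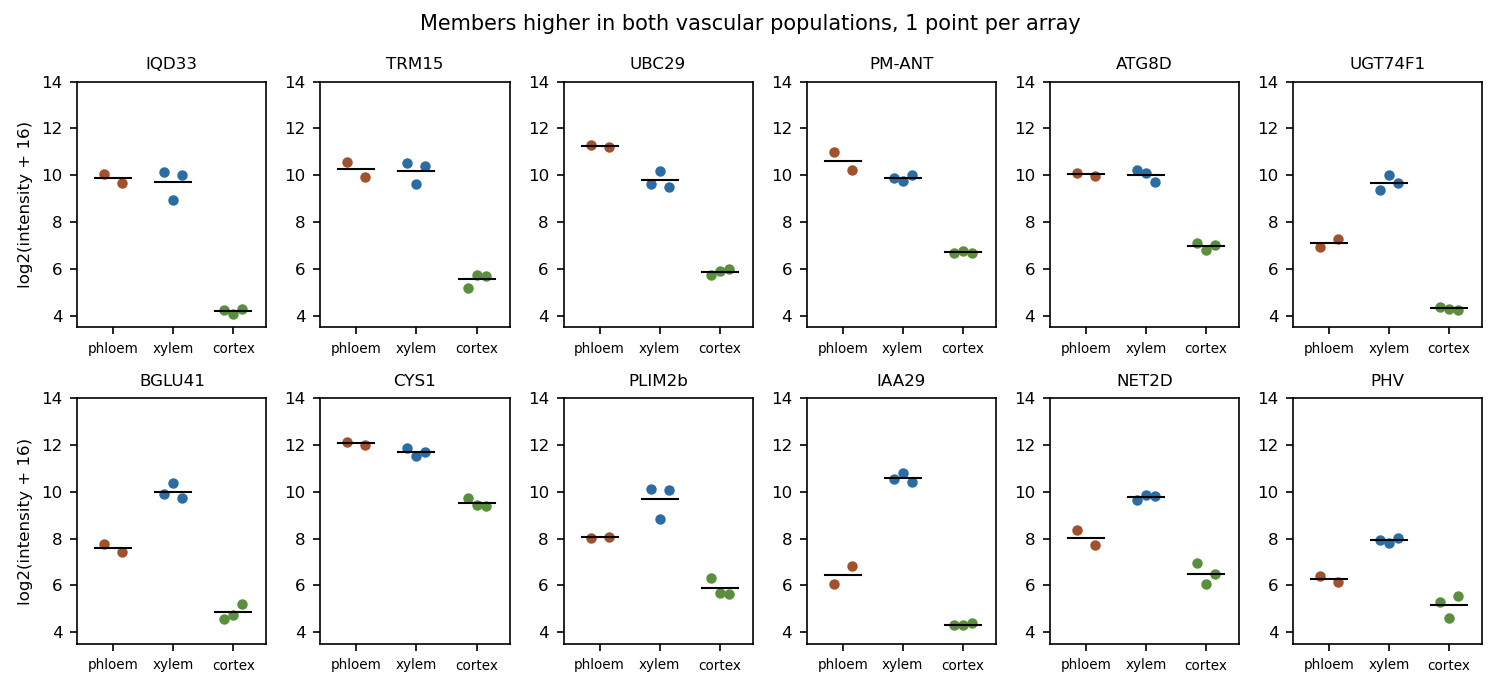
Each panel is 1 gene of the higher set and each point 1 array, in log2(intensity + 16), with the population mean as a bar. All vascular arrays lie above all cortex arrays in these panels, and IAA29, UGT74F1 and BGLU41 are higher in xylem than in phloem while UBC29 is higher in phloem.

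Glycosyltransferase genes came first in number among the lower families. UDP-glycosyltransferases (UGTs) attach sugars to hormones, phenylpropanoids and other small molecules. Of 47 measured UGT genes, 15 were called lower in both vascular populations and 1, UGT74F1, higher, and 3 more met the shift rule without passing. That was 31.9% called lower, beside 7.29% of all 1536 genes with a symbol, and the median vascular shift of the family was -0.84 beside -0.08. Shifts of the 15 genes ranged from -1.15 to -3.58 in phloem and from -1.11 to -6.24 in xylem. Under the other scalings tried 13 to 23 UGT genes were called lower, 1 was called higher and the median lay between -0.71 and -1.48. UGT genes are related in sequence, so their probe sets may cross-hybridise and the genes are not independent of each other.

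UGT71C1, which glucosylates phenolic substrates, measured 1358, 2279.9 and 1287 in cortex, 115 and 122 in phloem and 4.02, 8.81 and 3.25 in xylem. It was at background in xylem, and both phloem arrays were far below every cortex array. UGT72E2, which glucosylates monolignols, measured 4219, 3521 and 2427 in cortex, 677 and 545 in phloem and 145, 145 and 120.2 in xylem. UGT78D2, a flavonoid 3-O-glucosyltransferase, measured 2199, 1633 and 979 in cortex, 294 and 368 in phloem and 259, 177 and 180.4 in xylem. UGT84A1, which forms hydroxycinnamate glucose esters, was at background on all 5 vascular arrays, none above 2.15, and measured 373, 152 and 71.8 in cortex. Its cortex arrays were widely spread.

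UGTs that conjugate hormones were in the lower set as well. UGT74D1, which glucosylates auxins, measured 1644, 1326 and 1024 in cortex, 177 and 135 in phloem and 169.6, 109 and 188 in xylem. Xylem and phloem differed by -0.02 (-0.64 to 0.60, adjusted p = 0.961). UGT76B1, which conjugates salicylic acid and isoleucic acid, measured 2933, 3646 and 3303 in cortex, 326 and 431 in phloem and 367, 30.0 and 192 in xylem. Xylem replicate 2 stood well below the other xylem arrays, and the call was lost when either phloem array was left out. UGT71B1 measured 527, 384 and 287 in cortex, 31.1 and 40.1 in phloem and 65.4, 7.47 and 56.5 in xylem. Of the 15 lower UGTs, 7 were lower in xylem than in phloem in the xylem-phloem test and none was higher. Calls of UGT85A2, UGT72E3, UGT73B5, UGT85A7, UGT76D1, UGT76C2 and UGT76E12 were lost when at least 1 array was left out, phloem replicate 2 in each case.

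**Figure D4:**
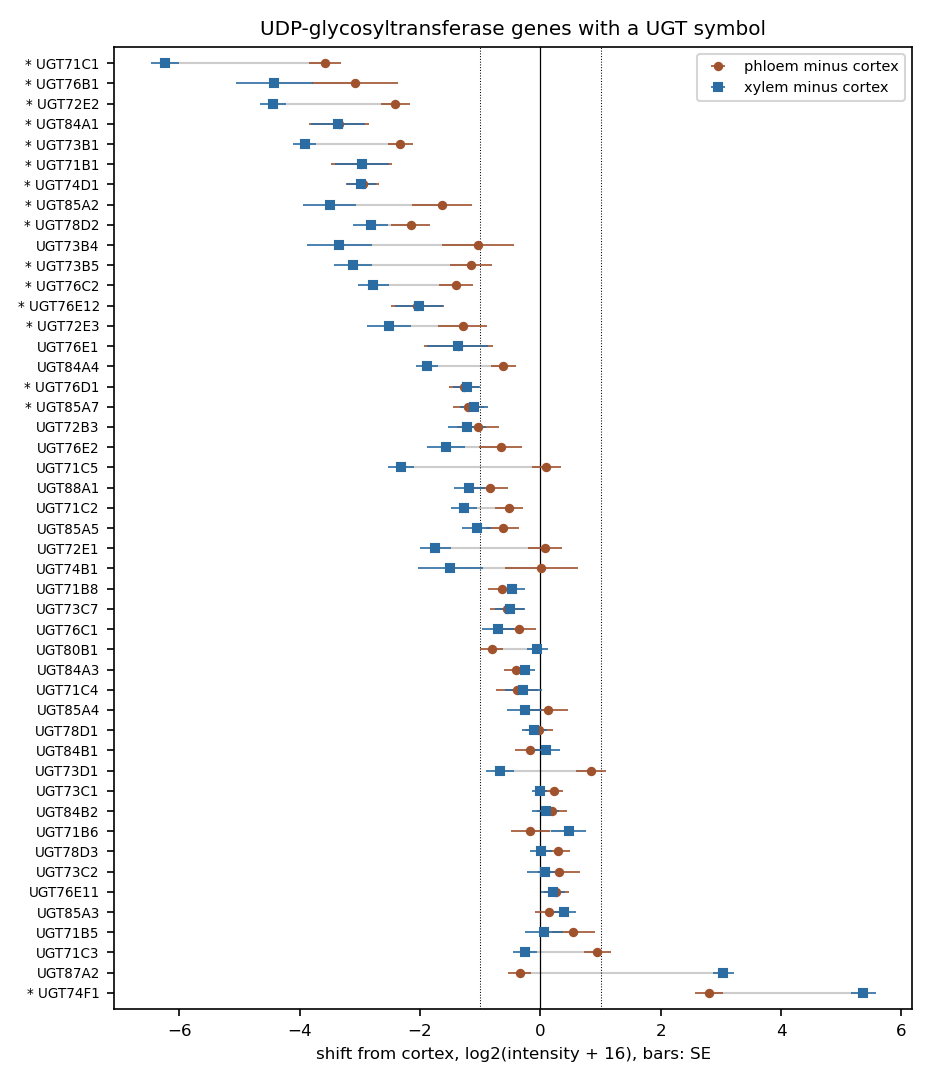
Each line is 1 of 47 UGT genes, with the phloem minus cortex and xylem minus cortex shifts as its end points in log2(intensity + 16) and their SE as bars. Dotted lines mark a shift of 1 in either direction, and an asterisk marks a called member. Most genes lie left of zero, 15 are called lower and UGT74F1 alone is called higher.

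Some genes of phenolic metabolism beyond the UGTs were in the lower set. Of 9 genes classed by name as lignin and phenylpropanoid, 1, CHIL, was called lower and none higher. Among genes with a symbol 7.29% were called lower, and the median vascular shift of the class was 0.009. CHIL, a chalcone isomerase-like protein that aids flavonoid synthesis, measured 3168, 3195 and 2687 in cortex, 285 and 177 in phloem and 221, 91.2 and 220.1 in xylem. Its shifts were -3.65 ± 0.35 and -4.06 ± 0.32. DFR, the only other measured gene of 8 on the flavonoid list, shifted by -0.01 in phloem and 0.21 in xylem. F6'H1 (AT3G13610), which makes the coumarin scopoletin's precursor, measured 416, 538 and 441 in cortex, 14.9 and 33.9 in phloem and 5.73, 4.31 and 2.06 in xylem. Of the other coumarin genes measured, F6'H2 shifted by 0.25 in phloem and -0.12 in xylem and S8H by -0.34 and -0.03. ALDH2C4, an aldehyde dehydrogenase that forms ferulate and sinapate, measured 2533, 2424 and 2112 in cortex, 667 and 677 in phloem and 76.1, 70.4 and 81.1 in xylem. With ALDH7B4 and ALDH10A8, 3 of 8 measured ALDH genes were called lower and none higher, beside 7.29% of genes with a symbol called lower. Under the other scalings tried 2 to 6 were called lower. The call of ALDH10A8, at -1.05 in phloem, was lost without phloem replicate 2. Of 24 cytochrome P450 genes, 6 were called lower and 1, CYP71B37, higher, a call lost without phloem replicate 2. That is beside 7.29% and 2.80% of genes with a symbol, and the family's median vascular shift was -0.05 beside -0.08. CYP71B34 measured 479, 502 and 396 in cortex, 43.9 and 43.5 in phloem and 13.0, 29.2 and 20.3 in xylem.

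GH3.3 and GH3.17 were in the lower set. GH3.3, an enzyme that conjugates auxin to amino acids, measured 1281, 1845 and 1557 in cortex, 122 and 120.1 in phloem and 12.9, 56.2 and 20.5 in xylem. GH3.17 of the same family measured 1113, 1142 and 641 in cortex, 279 and 233 in phloem and 16.0, 3.87 and 21.8 in xylem. In both cases xylem was the lowest population, with xylem minus phloem at -1.69 for GH3.3 (-2.50 to -0.88, adjusted p = 0.0045) and -3.23 for GH3.17 (-3.99 to -2.47, adjusted p = 8.88e-05). Among 11 measured genes of auxin response and transport, the 2 Aux/IAA genes were called higher and these 2 GH3 genes lower, beside 2.80% and 7.29% of genes with a symbol.

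Some transporters of nitrate-family and other solutes were in the lower set. Of 24 genes classed by name as ion and nutrient transporters, 4 were called lower and none higher. Among genes with a symbol 7.29% were called lower, and the median vascular shift of the class was -0.21 beside -0.08. NPF6.4 (AT3G21670), of the nitrate and peptide transporter family, measured 631, 497 and 610.1 in cortex, 2.80 and 6.21 in phloem and 5.61, 11.4 and 6.82 in xylem. It was at background in both vascular populations, so the xylem minus phloem difference of 0.22 compares background values. NPF6.2 (AT2G26690) measured 1192, 1293 and 1104 in cortex, 302 and 299 in phloem and 48.3, 76.7 and 48.0 in xylem. OCT5, of the organic cation and carnitine transporters, measured 1041, 705 and 898 in cortex, 97.3 and 113 in phloem and 136, 101 and 83.3 in xylem. For OCT5 the xylem minus phloem difference had a 95% interval of -0.54 to 0.54 (adjusted p = 1). TMT1, a tonoplast sugar transporter, was lower at 363 and 335 in phloem and 437, 1039 and 409 in xylem against 3015, 2741 and 2357 in cortex. The name patterns missed TMT1. Of 16 genes that they classed as sugar transporters none was called, and the median vascular shift was 0.06.

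Beta-tubulin genes split by member. TUB1 measured 4273, 4293 and 4161 in cortex, 452 and 476 in phloem and 351, 241 and 224 in xylem, and TUB5 measured 3538, 3239.8 and 3178, 361 and 355 and 366, 109 and 178 in the same order. Every cortex array of both genes was far above every vascular array. Shifts were -3.15 ± 0.20 and -3.91 ± 0.18 for TUB1, and -3.15 ± 0.38 and -3.99 ± 0.34 for TUB5. TUB6 went with xylem alone, at 7404, 4087 and 6202 in xylem, 861 and 605 in phloem and 1428, 1200.4 and 1252 in cortex. TUB7 shifted by 0.32 in phloem and 1.18 in xylem and TUB9 by -0.80 and 0.57. Thus 2 of 5 measured beta-tubulins were called lower and none higher, beside 7.29% and 2.80% of genes with a symbol. Tubulin genes are closely related, and cross-hybridisation between them cannot be judged from these files.

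FER and THE1 are receptor kinases of the CrRLK1L family, which sense wall state and, in the case of FER, RALF peptides. FER measured 1344, 2100.2 and 1887 in cortex, 498 and 367 in phloem and 726, 216 and 634 in xylem. THE1 measured 1812, 1842 and 1709 in cortex, 523 and 420.0 in phloem and 721, 233 and 667 in xylem. Shifts in phloem and xylem were -1.99 ± 0.46 and -1.87 ± 0.41 for FER, and -1.89 ± 0.41 and -1.85 ± 0.37 for THE1. Both calls were lost without phloem replicate 2. The pollen-expressed relatives ANX1 and ANX2, the other measured members of 6 listed, shifted by 0.04 and 0.10 in phloem and by -0.01 and -0.23 in xylem. Both were near background on every array, none above 11.5, so these shifts compare background values. PXL1 (AT1G08590), a receptor kinase related to the vascular receptor PXY, measured 950.5, 725 and 738 in cortex, 123 and 154 in phloem and 42.1, 33.9 and 37.6 in xylem.

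Lower members among wall-loosening and wall-building enzymes with a symbol, chosen after their values were seen, were mostly lowest in xylem. Of 29 genes classed by name as wall-loosening, 4 were called lower and 1, XTH21, higher, a call lost without any 1 cortex array. Of 19 classed as pectin and wall hydrolases, 2 were called lower and 1, GH9B17, higher. Among genes with a symbol 7.29% were called lower and 2.80% higher, and the median vascular shifts of these classes were 0.002 and -0.02. EXPA8, an expansin, measured 327, 331 and 240.1 in cortex, 40.0 and 57.9 in phloem and 3.55, 9.54 and 15.1 in xylem. GH9B13, an endoglucanase, measured 1917, 1713 and 1947, 552 and 430.1 and 19.5, 33.5 and 35.1 in that order. PMEPCRF, a pectin methylesterase, measured 2077, 2183 and 1996 in cortex, 557 and 651 in phloem and 62.5, 59.2 and 34.2 in xylem. These genes fell in both vascular populations, and their signal in xylem was a small part of that in phloem. PRX71 (AT5G64120), a wall peroxidase, measured 1406, 1683 and 1512 in cortex, 395 and 444 in phloem and 121, 32.6 and 110.5 in xylem, and its call was lost without either phloem array. XTH19, a xyloglucan endotransglucosylase, measured 561, 593 and 849 in cortex, 298 and 271 in phloem and 13.0, 2.09 and 19.5 in xylem, and its call was lost without either phloem array or without cortex replicate 3. Of 22 TBL genes with a symbol, TBL41, TBL35 and TBL32 were called lower and TBL23 higher, beside the same 7.29% and 2.80%. The call of TBL23 was lost without phloem replicate 1 and without cortex replicate 2 or 3. The call of TBL32, on a probe set that can bind related transcripts, was lost without either phloem array.

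Genes of purine breakdown and of urea hydrolysis were in the lower set. Allantoinase (ALN) and allantoate amidohydrolase (AAH) act in succession in purine breakdown, and urease (URE) releases ammonium from urea. The 3 were the only measured genes of 8 on a list drawn up after their values were seen. ALN measured 809.9, 878 and 755 in cortex, 254 and 183 in phloem and 31.1, 27.4 and 42.9 in xylem. AAH measured 161, 161 and 149, 46.1 and 80.1 and 11.5, 28.6 and 17.3, and URE 99.8, 137 and 99.5, 32.4 and 29.2 and 7.36, 9.45 and 6.13, in the same order. All 3 were called lower in both vascular populations, and the xylem value was below the phloem value in each, by 2.23, 1.17 and 0.99 log2 units. The call of AAH was lost without phloem replicate 1. LKR/SDH (AT4G33150), which starts lysine breakdown, measured 1817, 2148 and 1676 in cortex, 395 and 523 in phloem and 332, 304 and 237 in xylem. SIR, the sulfite reductase of sulfate assimilation, measured 699, 692 and 528 in cortex, 277 and 249 in phloem and 126, 111 and 94.2 in xylem. Of the other sulfate genes measured, APS4 shifted by -0.85 and -3.05 and APS3 by -0.25 and -0.69.

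Genes of plastid proteins were in the lower set. RCA, the activase of Rubisco, measured 391, 655 and 417 in cortex, 98.5 and 115 in phloem and 22.3, 25.5 and 7.66 in xylem. LIL3:2, a light-harvesting-like protein, measured 632, 664 and 439 in cortex, 171 and 193 in phloem and 53.1, 34.3 and 35.3 in xylem. ATPC1, the gamma subunit of the chloroplast ATP synthase, measured 579, 705 and 368 in cortex, 130.4 and 190.0 in phloem and 35.0, 93.4 and 46.7 in xylem, and its call was lost without phloem replicate 1. NANA, a plastid aspartic protease, headed the lower genes with a symbol at 1638, 1511 and 1546 in cortex, 82.2 and 127 in phloem and 26.7, 24.7 and 4.36 in xylem. Among 14 genes that the annotation's names place in photosynthesis or plastids, 2, GPDHp and PSBY, were called lower in both populations. That is beside 7.29% of genes with a symbol, and both calls were lost without either phloem array. Of the 14 genes, 10 were lower on the vascular average and none was higher on it. Over all probe sets 21.8% were lower and 13.3% higher on that average. The median vascular shift of the 14 genes was -0.98. The name patterns missed RCA, LIL3:2, ATPC1 and NANA, called lower, and NOL, called higher. The counts of this class therefore leave out called genes in both directions.

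Ground tissue markers and regulators formed the last group. AT1G09750 and AT1G62510, both on the cortex marker list, measured 2979, 2232 and 2652 and 1304, 1118 and 962 in cortex. In phloem they measured 44.0 and 42.2 and 2.59 and 15.3, and in xylem 9.27, 22.8 and 16.1 and 1.44, 1.82 and 2.46. AT3G05150, undescribed in the annotation table, had the largest vascular shift of the lower genes named by rule, -6.30 ± 0.15, with 2469.8, 2561 and 2533 in cortex, 46.3 and 32.6 in phloem and 1.38, 3.93 and 3.40 in xylem. JKD, a zinc finger factor of ground tissue identity, measured 277, 225 and 161 in cortex, 42.4 and 31.5 in phloem and 2.53, 4.82 and 2.08 in xylem. GSO1, also known as SGN3, a receptor kinase of the endodermal Casparian strip, measured 475, 635 and 385 in cortex, 136 and 127 in phloem and 76.7, 95.7 and 72.2 in xylem. AT5G02000, a further gene of the cortex list, measured 283, 257 and 306 in cortex, 30.6 and 37.2 in phloem and 13.7, 22.1 and 23.2 in xylem. AT2G40260, undescribed in the table, measured 331, 244 and 193, 28.9 and 13.9 and 16.0, 23.9 and 23.7 in that order and was named for its small difference of 0.01 between xylem and phloem. AT1G61590, the other measured endodermis gene, was not a member, at 0.70 in phloem and -1.93 in xylem.

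WRKY6 ranked first among the lower transcription factors picked by name patterns. It measured 837, 1243 and 2002 in cortex, 382 and 320.4 in phloem and 18.3, 15.1 and 28.7 in xylem, so that phloem was intermediate and xylem near background. WRKY47 measured 172, 143 and 147 in cortex, 47.2 and 71.2 in phloem and 7.68, 21.4 and 17.8 in xylem, and its call was lost without phloem replicate 1. The other 4 measured WRKY genes were not called, where 7.29% of genes with a symbol were called lower. bZIP52 measured 349, 292 and 201 in cortex, 103 and 85.6 in phloem and 56.2, 56.9 and 27.4 in xylem, and bZIP30 (AT2G21230) 159.8, 244 and 179.7, 80.7 and 75.3 and 90.1, 74.1 and 66.6. The calls of both were lost without phloem replicate 2, and that of bZIP30 also without cortex replicate 2, with a pseudocount of 64 and under quantile normalization, median centring and trimmed-mean scaling. Among 89 genes classed as transcription factors, 2 were called higher and 4 lower, 2.25% and 4.49%, beside 2.76% and 4.99% of all 13334 genes measured on a probe set with 1 gene. The name patterns missed PHV, called higher, and JKD, called lower, so these counts leave out called factors in both directions.

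**Figure D5:**
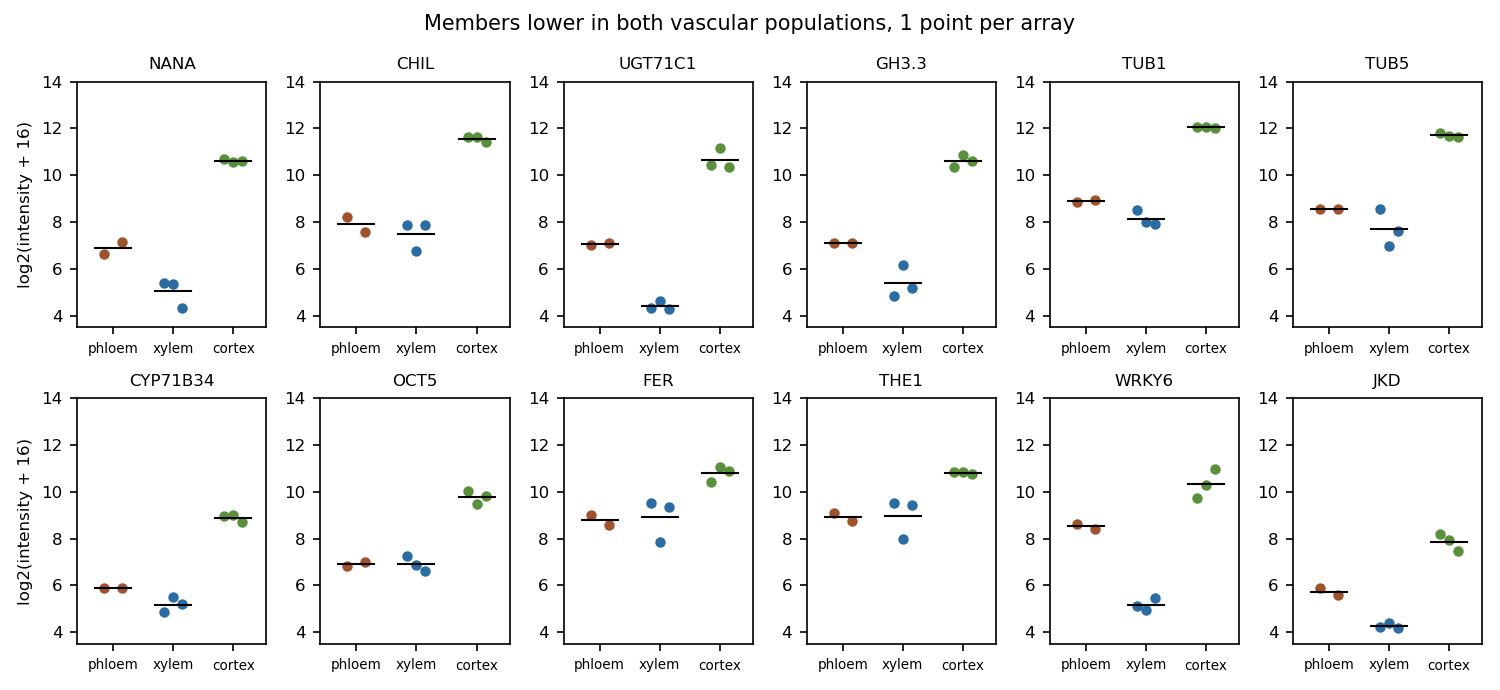
Each panel is 1 gene of the lower set and each point 1 array, in log2(intensity + 16), with the population mean as a bar. All cortex arrays lie above all vascular arrays, and xylem lies below phloem for WRKY6, UGT71C1 and JKD. For FER, THE1 and OCT5 the xylem minus phloem difference did not pass, which does not show equal levels.

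Whether a shared shift was of like size in xylem and phloem was tested with the xylem minus phloem difference. Over all probe sets, 13.9% were higher in xylem and 28.5% were lower. Of the 629 called higher members, 238 were higher in xylem, 148 were higher in phloem and 243 did not pass. For the 1435 called lower members the split was 34, 737 and 664. On the values as deposited, the lower set was therefore mostly lowest in xylem wherever a difference passed, and the higher set was divided. These directions depend on the scale. Median centring moved the median shift of all probe sets from -0.03 to -0.20 in phloem and from -0.14 to 0.29 in xylem. The split by direction was not recounted on that scale. The larger of both shifts was in xylem for 365 of the higher and 1181 of the lower called members. Among the genes named by rule, 10 of 22 higher and 14 of 29 lower genes did not pass this test, counts that the rule partly fixes since it names 4 genes a direction for a small xylem minus phloem difference. A p that misses the threshold does not show that the levels are equal. Shifts of at least 2 in both populations were reached by 205 called higher and 334 called lower members, of at least 4 by 23 in each direction, and of at least 5 by 8 and 4.

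The threshold cut through a continuous range. P1R3 and JRG21 lay just inside on the higher side, with smaller shifts of 1.001 and 1.01, and JRG21 did not pass in either population (adjusted p of 0.39 in phloem and 0.15 in xylem). LCR69 and TBL45 lay just outside, with xylem shifts of 0.9998 and 0.90 and phloem shifts of 3.71 and 5.91. On the lower side NdhS and MSRB9 lay just inside at -1.0001 and -1.01 in phloem, where MSRB9 did not pass (adjusted p of 0.52), and THIC and GTR1 just outside at -0.9992 and -0.99. GTR1, a glucosinolate transporter, fell by 4.24 log2 units in xylem.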

How the data were processed

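Gene expression was measured on Affymetrix ATH1 arrays, 2 of phloem, 3 of differentiating xylem and 3 of cortex. Per the submitters' processing notes, the authors used MAS5, and they deposited 1 linear intensity per probe set and array. Its version and scaling target were not given in the sources used here, and detection calls are not among the values used. With no depth in an array file, precision is set by how many arrays there are. The table holds 22810 probe sets. Of these, 64 control probe sets were left out and 22746 tested.

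Intensities were transformed to log2(value + 16) without further normalization and fitted with limma 3.58.1 in R 4.3.3, with 1 mean per population over all 8 arrays and an intensity trend. The 5 residual degrees of freedom gained 3.66 from moderation. Phloem minus cortex, xylem minus cortex, their average and xylem minus phloem were tested, each adjusted by Benjamini-Hochberg over all probe sets tested at a threshold of 0.05. Shifts are log2 differences on this scale, given ± SE, and they understate the change of dim probe sets. The fit was tested on simulated data with the same shift in phloem and xylem, given only to probe sets above the median. Calls there used a shift of at least 0.5, so the rule of at least 1 was not tested.

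Names came from the platform annotation and RefSeq symbols of TAIR10.1. 13513 had 1 gene, 503 several and 8730 none listed, and no gene was named from a probe set with several. The brightest probe set stood for a gene in counts of families and lists. A gene named by rule was on a probe set with 1 gene, passed both comparisons, had a bright side above the median probe set (6.27) and had no overlap of vascular and cortex arrays. Ranked by the smaller shift, the first 12 with a symbol, 6 described locus tags, 6 transcription factors and, among the first 100, the 4 with the smallest xylem minus phloem difference were named per direction, with called members of 14 gene lists. The first 2 locus tags per direction were added, giving 51 genes. Other genes were chosen after their values were seen. The 14 lists hold 173 genes, of which 32 were measured, 1 called higher and 6 lower. The members, lists and rules were chosen with earlier results of these data known. Transcription factors and gene classes were picked by patterns in names. Replicate numbers did not pair the arrays. Alternatives covered pseudocounts, scaling, filters, thresholds, a pooled vascular mean, a replicate block and leaving out each array. Figures were drawn with matplotlib 3.10.9 in Python 3.11.15.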

Additional observations from a re-analysis of the deposited data

Results flagged for a closer look

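For 27 of the genes named by rule, the shift from cortex differed between the vascular populations by the test of xylem minus phloem (limma, Benjamini-Hochberg over all probe sets). Values are log2 differences of xylem minus phloem. In all 27 genes every vascular array lies on the stated side of every cortex array. The naming rule required this of every gene but the called list members, so it is a description. Genes higher than cortex in both and strongest in xylem were IAA29 (4.17), TBL40 (AT2G31110, 3.37), UGT74F1 (2.56), BGLU41 (2.40), PHV (1.66), PLIM2b (1.63), AT5G14510 (1.05), AT1G75280 (0.84) and MEF8S (0.79). Their adjusted p ranged from 2.86e-06 for TBL40 to 0.00869 for PLIM2b. Genes higher than cortex in both and strongest in phloem were UBC29 (-1.46), AT1G55760 (-0.87) and PM-ANT (-0.73), with adjusted p of 0.00074, 0.0353 and 0.0281.

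All 15 lower genes that passed were lowest in xylem. The widest differences were those of WRKY6 (-3.33), UGT71C1 (-2.66), PRX71 (AT5G64120, -2.20), NPF6.2 (AT2G26690, -2.13), NANA (-1.85) and GH3.3 (-1.69). AT3G05150 (-1.54), PXL1 (AT1G08590, -1.52), JKD (-1.46) and WRKY47 (-1.26) followed. Differences within 1 log2 unit were those of F6'H1 (AT3G13610, -0.97), AT1G09750 (-0.91), TUB1 (-0.76), CYP71B34 (-0.72) and LKR/SDH (AT4G33150, -0.63). Adjusted p ranged from 5.52e-05 for NPF6.2 to 0.0374 for LKR/SDH. Several of these genes were near background in xylem, among them UGT71C1, AT3G05150 and JKD, and there the pseudocount sets the size of the difference. All these differences are on the values as deposited. Those within 1 log2 unit depend most on the scale, and they were not examined gene by gene under the other scalings.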

How the results depend on the processing

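The 629 higher and 1435 lower calls became 367 and 1079 with a pseudocount of 64, 334 and 3870 with spike-in scaling, 205 and 334 with a shift of at least 2, and 937 and 2166 with a shift of at least 0.5. The 7993 probe sets that passed on the vascular average became 13523 with spike-in scaling and 2698 when the 5 vascular arrays shared 1 mean, where differences between xylem and phloem enter the spread. Leaving out each array in turn gave 522 to 668 higher calls, 1031 to 1473 lower calls, 6195 to 8845 on the vascular average and 892 to 1207 members that passed between xylem and phloem, beside 1157. The lowest higher count came without phloem replicate 1, the lowest lower count and the lowest xylem-phloem count without phloem replicate 2, and the lowest count on the vascular average without cortex replicate 2. All 4 counts were highest without xylem replicate 2. With the replicate number as a block the counts were 616, 1400, 7643 and 1103. Deviations from the population means did not pair by number (correlations of -0.10 to 0.15). Under the other settings tried for these counts, each moved by less than 1.5 times. For the 51 genes named by rule, the vascular shift kept its direction under every alternative that gave a value. LEA27 (AT2G46140) no longer passed on it with spike-in scaling and TBL40 (AT2G31110) with the pooled mean. The call by both comparisons was kept under every alternative that gave a value (18 or 19 a gene) for 40 of the 51 and for 86 of 170 members named in the tables. No detection calls or depths were given, so a dim probe set on either side bounds a ratio only loosely.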
